A study of Mus musculus with 12 samples.

Results

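The genes described here are 10 members of the insulin-like growth factor (IGF) system in mouse neural progenitor cells, taken from the 41592 gene symbols found in both the day 5 and the day 9 table. They comprise 6 secreted IGF-binding proteins (Igfbp2, Igfbp3, Igfbp4, Igfbp5, Igfbp6 and Igfbp7), 2 receptors (Igf1r and Igf2r) and 2 ligands (Igf1 and Igf2). They were put together as a family whose members moved in opposite directions after loss of lamin B1, so the difference between genotypes chose them, and their values are given as a description that supports nothing by itself. At day 9 the transcripts of Igfbp2, Igfbp3 and Igfbp4 were 17.2-fold, 7.29-fold and 29.3-fold lower in the cells with floxed Lmnb1, that of Igfbp5 was 2.47-fold higher, and those of the receptors Igf1r and Igf2r were 1.62-fold and 1.73-fold lower. At day 5 no tested member differed by more than 0.31 on the log2 scale, in either direction. The SE of those differences were 0.24 to 0.44, so differences of the size of an SE, and larger ones, are not excluded at day 5.

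RNA with poly(A) tails was sequenced from 12 libraries in 4 groups of 3. The cells were C57BL/6 neural progenitors, dividing cells that can give rise to neurons and glia, and carried either wild-type Lmnb1 (LaminB1+/+, here WT) or loxP-flanked Lmnb1 (LaminB1fl/fl, here cKO). Both genotypes carried the Cre-dependent EYFP reporter Ai3, and both received the same lentivirus, which drives Cre recombinase from a Sox2 promoter, so the WT cells are a control for Cre and for the virus. EYFP-positive cells were collected by sorting 5 or 9 days after the virus, from cultures in DMEM/F12 with modified N2/B27 and EGF and FGF-2 at 10 ng/ml each. The labels give no age of the animals of origin and do not tie replicates to separate cultures or animals, so a p-value here reflects only the spread among these samples, and that spread may be technical.

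IGF-1 and IGF-2 are secreted growth factors that act through the tyrosine kinase receptor encoded by Igf1r, while the receptor encoded by Igf2r takes up IGF-2 for breakdown in lysosomes. IGF-binding proteins hold the ligands outside the cell, and depending on the member and on proteases they keep IGFs away from the receptor or store and deliver them. In neural progenitor cultures IGF and insulin signals are known to promote survival and growth, through adaptors such as the IRS proteins, PI3K, AKT and mTOR, with FOXO factors held out of the nucleus by AKT.

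Library totals lay between 26720620 and 32127716 counts at day 5 and between 13315399 and 24662871 at day 9. Structural RNA features (14 loci, ribosomal and other non-coding) held at most 0.509% of counts at day 5 except in cKO replicate 2 (14.2%). At day 9 they held 15.9% to 34.95% in WT, 72.5% and 71.28% in cKO replicates 1 and 3, and 0.362% in cKO replicate 2, so that cKO replicates 1 and 3 kept 3662016 and 3936777 counts outside them. The targeted gene Lmnb1 was lower in every cKO library at both days, with log2 fold changes of -2.68 ± 0.20 (SE) and -2.38 ± 0.14, n = 3 libraries per group. The 9 progenitor markers were detected in every library, with summed levels at day 9 of 2726 to 3103 CPM (counts scaled to a common library total) in WT and 1330 to 1528 in cKO. Of the markers of other cell types, 7 of 9 endothelial, 9 of 11 mural and fibroblast, all 9 microglia and macrophage and 6 of 7 choroid plexus genes were under 1 CPM in every day 9 library. Endothelial markers summed to 3.37 to 4.195 CPM across WT and 3.43 to 4.02 in cKO at day 9, with Cdh5 at 0 in all 6 libraries, and mural and fibroblast markers to 2.83 to 3.72 and 2.96 to 4.64 CPM, with Lum at 0. Of the tested endothelial markers, mean Kdr rose from 1.66 to 2.79 CPM and Flt1 fell from 1.34 to 0.555 CPM (edgeR, adjusted p under 0.05). Among the mural and fibroblast ones Pdgfrb rose from 0.475 to 1.85 CPM, Acta2 fell from 0.835 to 0.285 CPM and Tagln did not pass. By that rule 21% of all tested genes rose and 22.6% fell. Microglia and macrophage markers summed to 0.287 to 0.407 CPM across WT and 0.654 to 2.11 in cKO, with Aif1 and Tyrobp at 0. Choroid plexus markers summed to 0.876 to 1.13 CPM across WT and 5.14 to 6.09 in cKO, where Aqp1 alone was at 3.74, 5.73 and 4.925 CPM, with Ttr at or under 0.0359 CPM.

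The promoters of the 4 binding protein genes that differed most between the genotypes are shown because Igfbp2 and Igfbp5 are neighbours that moved in opposite directions, while Igfbp3 and Igfbp4 lie on another chromosome and moved with Igfbp2. In mm10 (GENCODE M21) Igfbp2 occupies chr1:72824503-72852474 on the forward strand and Igfbp5 chr1:72857932-72874884 on the reverse strand, so their 3′ ends face each other across 5457 bases. The bases before a RefSeq transcription start, for Igfbp2 the upstream one of 2, are given 5′ to 3′ on the strand of the gene (RefSeq, GRCm38.p6), with matches to 5 searched motifs in capitals. The window of Igfbp5 ends 19 bases earlier than the others, where GENCODE places its first exon.
Igfbp2, chr1:72824230-72824479, forward strand: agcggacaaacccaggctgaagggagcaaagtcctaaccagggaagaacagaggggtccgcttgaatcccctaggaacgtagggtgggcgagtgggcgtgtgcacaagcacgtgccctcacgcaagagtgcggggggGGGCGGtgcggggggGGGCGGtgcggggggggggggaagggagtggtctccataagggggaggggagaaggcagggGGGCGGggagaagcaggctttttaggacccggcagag
Igfbp5, chr1:72874885-72875115, reverse strand: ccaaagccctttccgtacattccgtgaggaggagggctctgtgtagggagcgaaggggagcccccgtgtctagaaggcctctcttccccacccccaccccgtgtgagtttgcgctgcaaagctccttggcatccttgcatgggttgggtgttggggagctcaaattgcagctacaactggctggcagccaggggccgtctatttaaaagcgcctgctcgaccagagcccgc
Igfbp3, chr11:7213924-7214173, reverse strand: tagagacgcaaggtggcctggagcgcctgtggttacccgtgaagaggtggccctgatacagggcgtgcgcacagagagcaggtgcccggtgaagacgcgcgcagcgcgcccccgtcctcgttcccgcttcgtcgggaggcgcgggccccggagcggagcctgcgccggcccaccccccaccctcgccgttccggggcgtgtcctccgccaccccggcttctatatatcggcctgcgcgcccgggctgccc
Igfbp4, chr11:99040994-99041243, forward strand: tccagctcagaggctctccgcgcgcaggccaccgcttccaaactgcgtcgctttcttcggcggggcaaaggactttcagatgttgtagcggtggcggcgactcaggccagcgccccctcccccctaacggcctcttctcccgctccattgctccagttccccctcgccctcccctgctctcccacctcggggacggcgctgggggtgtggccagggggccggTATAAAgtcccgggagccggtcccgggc
Each motif was searched on both strands, and the background is the share of 32851 RefSeq mouse promoter windows of 250 bases that hold it. The GC box, written GGGCGG, is in 32.7% of them, and the Igfbp2 window holds 3 copies, which start 113, 98 and 37 bases before the transcription start. The TATA box, written TATAAA, is in 12.4%, and the Igfbp4 window holds it 28 bases before the start. The CCAAT box is in 33.8%, the AP-1 motif TGACTCA in 4.46% and the ETS motif CCGGAAG in 6.91%, and none of them lies in these 4 windows. RefSeq lists another Igfbp2 start downstream, whose window (chr1:72825137-72825386, not printed because its last 65 bases are exonic in GENCODE) holds TGACTCA on the opposite strand 39 bases before that start. No match to any of the 5 lies in the windows of Igfbp3 and Igfbp5, and no 2 matches overlap. The windows of Igfbp2, Igfbp3 and Igfbp4 are rich in G and C (67.2%, 73.2% and 69.2%, with 14, 32 and 22 CpG), against a median of 52.4% and 6 CpG over all windows, and the shorter Igfbp5 window has 60.6% and 10 CpG. A match is a run of letters and was not tested as a binding site.

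Values in CPM below are counts put on a common library size by TMM, a scaling that assumes most genes not to change, and log2 fold changes are cKO minus WT from edgeR. Of the 10 members, 8 had enough counts to be tested at each day, and Igfbp6 and Igf1 did not. In bulk RNA, fewer cells that express a gene and less RNA per cell cannot be told apart. The counting is not stated to use strand, so where a member overlaps a gene on the other strand the reads of both cannot be told apart either.

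Igfbp2 had the highest mean TPM of the 6 binding protein genes in each of the 4 groups. In cKO at day 9 its range overlapped that of Igfbp5, though Igfbp2 was the higher within each library. At day 9 it was at 851.2, 764.7 and 703.4 CPM in WT replicates 1 to 3 and at 48.32, 40.46 and 46.15 CPM in cKO replicates 1 to 3. The groups lay far apart, each with little spread, and the log2 fold change was -4.11 ± 0.14 (SE, n = 3 per group). At day 5 Igfbp2 was at 1110, 2559 and 2386 CPM across WT and at 2246, 1044 and 1670 CPM in cKO. There the groups overlapped, with WT replicate 1 and cKO replicate 2 lowest, and the log2 fold change was -0.29 ± 0.42.

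Igfbp4, which encodes a binding protein that the protease PAPP-A cleaves, had the largest fold difference of the family. At day 9 it was at 187.8, 201.9 and 148.6 CPM across WT and at 7.64, 5.18 and 6.05 CPM in cKO. Every cKO library was thus far below every WT library, with a log2 fold change of -4.87 ± 0.19. The WT libraries of day 5 held 288.7, 576.2 and 563.8 CPM and the cKO libraries 544.4, 304.2 and 447 CPM, and the log2 fold change was -0.14 ± 0.35. The same 2 libraries as for Igfbp2, WT replicate 1 and cKO replicate 2, were the lowest of their groups at that day.

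Igfbp3 encodes the main carrier of IGFs in blood plasma and is also made by many cultured cells. At day 9 it was at 104.1, 127.5 and 106 CPM across WT and at 15.28, 16.29 and 14.49 CPM in cKO, again without overlap, with a log2 fold change of -2.87 ± 0.12. At day 5 it was at 607.7, 763 and 700.5 CPM across WT and at 770.7, 607.3 and 962.4 CPM in cKO, where the groups overlapped and the log2 fold change was 0.18 ± 0.24. Igfbp3 lies at chr11:7206086-7213923 on the reverse strand. Its nearest neighbour is another family gene, Igfbp1, 3539 bases away with 3′ ends facing, which averaged 0.0308 CPM across WT and 0.0275 in cKO at day 5 and was at 0 in all libraries at day 9.

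Igfbp5, which encodes a binding protein known to bind extracellular matrix, went the other way from its chromosome 1 neighbour. At day 9 it was at 69.5, 80.28 and 75.44 CPM across WT and at 178.3, 206.5 and 171.9 CPM in cKO, so each cKO library lay above each WT library. The log2 fold change was 1.31 ± 0.11. The WT libraries of day 5 held 58.82, 54.82 and 85.22 CPM and the cKO libraries 28, 87.12 and 55.31 CPM, with cKO replicate 1 lowest and cKO replicate 2 highest of all 6. The log2 fold change at day 5 was -0.22 ± 0.43. The size of the day 9 difference depends on how the structural RNA is treated: on the deposited TPM (a length-corrected abundance that sums to a fixed total), which those RNAs share, the log2 fold change of Igfbp5 was 0.21, while with TPM rescaled to a common total without them it was 0.99.

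Igfbp7 and Igfbp6 were low. Igfbp7 encodes a secreted protein that binds IGFs weakly and is known from blood vessels. At day 9 it was at 1.13, 2.65 and 1.72 CPM across WT and at 3.12, 3.395 and 1.69 CPM in cKO, with cKO replicate 3 inside the WT range (log2 fold change 0.61 ± 0.40). The groups overlapped at day 5 as well, at 2.28, 3.82 and 2.65 CPM across WT and 2.12, 2.07 and 3.4 in cKO (-0.20 ± 0.35). The 3′ end of Igfbp7 overlaps Polr2b on the other strand by 85 bases. Polr2b averaged 75.6 CPM across WT and 75.7 in cKO at day 9, and its share of the Igfbp7 counts was not tested. Igfbp6, whose product prefers IGF-2, ranged from 0.0283 to 0.453 CPM over the 6 day 9 libraries and from 0.0413 to 0.447 CPM over the 6 day 5 libraries. They rest on 1, 5 and 8 counts across WT and 1, 18 and 1 in cKO at day 9, and on 3, 9 and 13 across WT and 7, 1 and 2 in cKO at day 5. The highest day 9 value was thus that of cKO replicate 2, the cKO library with the most usable counts.

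**Figure D1:**
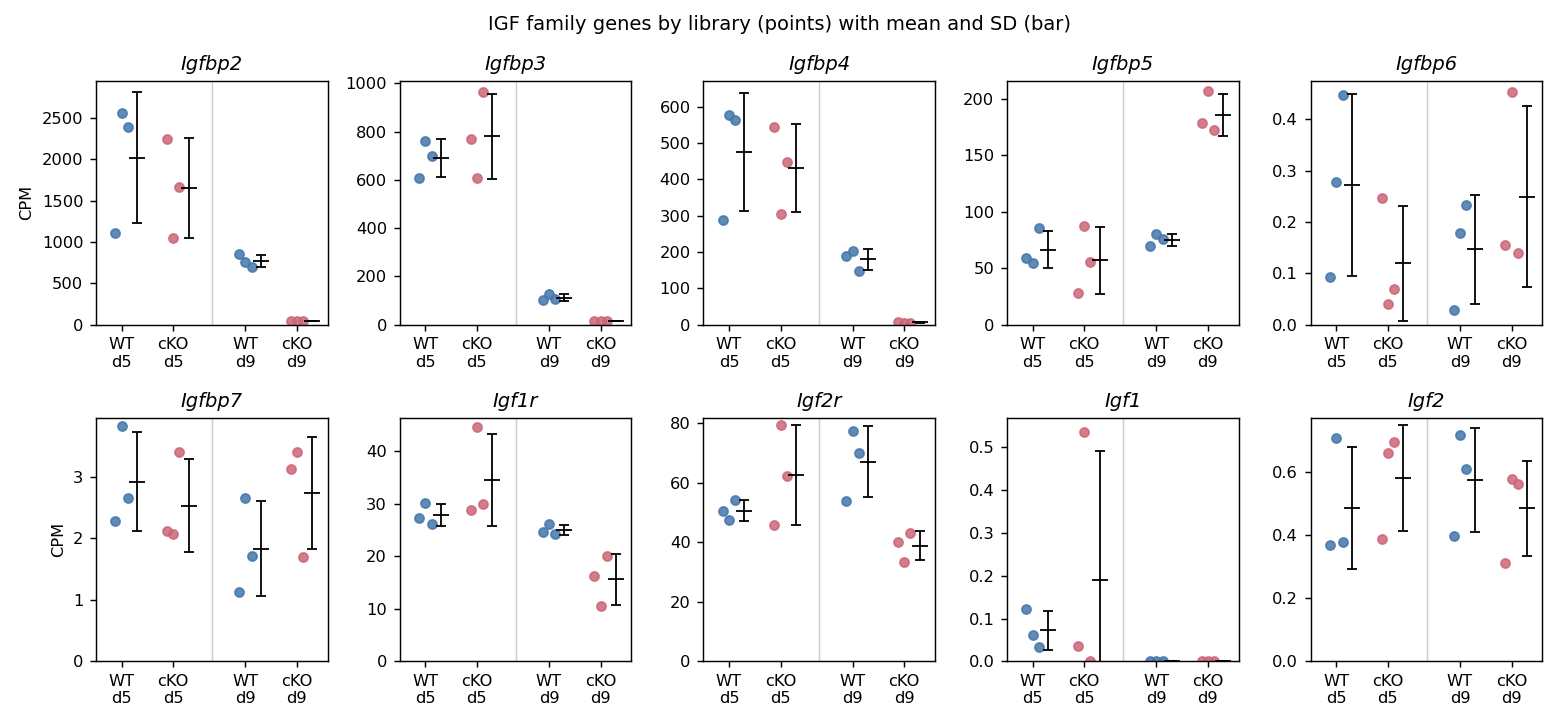
Level of each of the 10 IGF family genes in CPM, with 1 panel per gene and its own linear axis from 0, by group (WT or cKO, day 5 or day 9). Points are libraries and bars the mean with SD over 3 libraries. At day 9 the cKO points of Igfbp2 (40.46 to 48.32 CPM), Igfbp3 and Igfbp4 lie far under the WT points, those of Igfbp5 (171.9 to 206.5 CPM) lie above them, and at day 5 the groups overlap for all 8 tested members.

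Both receptor genes were lower in cKO at day 9, with smaller log2 fold changes than those of Igfbp2, Igfbp3 and Igfbp4. Igf1r, the IGF-1 receptor gene, was at 24.55, 26.1 and 24.22 CPM across WT and at 16.21, 10.44 and 20.12 CPM in cKO. The WT libraries lay close together and the cKO libraries lay below them with a wider spread, with a log2 fold change of -0.70 ± 0.22. Igf2r, the gene of the IGF-2 and mannose 6-phosphate receptor, was at 53.99, 77.34 and 69.82 CPM across WT and at 39.91, 33.44 and 43.06 CPM in cKO. The groups did not overlap and the log2 fold change was -0.79 ± 0.16. At day 5 both receptors had their highest value in cKO replicate 2, the library with most structural RNA at that day. Igf1r was then at 27.22, 30.15 and 26.12 CPM across WT and 28.85, 44.61 and 29.94 CPM in cKO (0.31 ± 0.26). Igf2r was at 50.34, 47.31 and 54.17 CPM across WT and 45.92, 79.48 and 62.15 CPM in cKO (0.30 ± 0.26).

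Igf2r lies at chr17:12682406-12769664 on the reverse strand, and its antisense RNA Airn (chr17:12741311-12860136, forward strand) overlaps its 5′ part. Airn was at 1.05, 1.29 and 0.931 CPM across WT and at 2.34, 0.830 and 3.80 CPM in cKO at day 9. It was highest in cKO replicates 1 and 3 and lowest in cKO replicate 2, and did not pass the test (log2 fold change 1.0 ± 0.53; edgeR adjusted p = 0.156, Benjamini-Hochberg). Reads of Airn inside Igf2r cannot be told apart from those of Igf2r, and their part in the Igf2r level was not tested.

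Transcripts of the ligands were scarce in both genotypes. Igf2 was at 0.37, 0.708 and 0.379 CPM across WT and 0.389, 0.661 and 0.694 CPM in cKO at day 5 (log2 fold change 0.25 ± 0.44). At day 9 it was at 0.396, 0.717 and 0.611 CPM across WT and 0.312, 0.578 and 0.563 CPM in cKO (-0.16 ± 0.47), so the groups overlapped at both days. Igf2 also overlaps the antisense gene Igf2os, and on its own strand the annotated gene Gm49394 over 16048 bases, nearly its whole length. Reads of these genes cannot be told apart from those of Igf2. The antisense gene Igf1os (chr10:87826377-87863381, reverse strand) overlaps the 5′ part of Igf1, and reads of both cannot be told apart there. At day 5 Igf1os was at 0.185, 0.154 and 0.0344 CPM across WT and 0.0707, 1.57 and 0.208 CPM in cKO. Its part in the Igf1 values was not tested. Igf1 had values of 0.123, 0.0616 and 0.0344 CPM across WT and 0.0354, 0.537 and 0 CPM in cKO at day 5, and 0 in all 6 libraries at day 9. A count of 0 there allows up to 0.0754 CPM in the library with the most usable counts and 0.468 CPM in the one with the fewest, for counting error only.

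Over the 8 tested members at day 9, 1 was higher (Igfbp5) and 5 were lower (Igfbp2, Igfbp3, Igfbp4, Igf1r and Igf2r) by the rule applied to all genes (edgeR's quasi-likelihood fit, adjusted p under 0.05), a count given for description and not as a test of the members. The same 6 members were the ones whose groups did not overlap. Of all 14617 genes tested at day 9, 21% were higher and 22.6% lower by that rule, and 27.6% and 30.2% (57.8% in all) had groups that did not overlap, while 54.2% had an unadjusted p under 0.05. Since this contrast chose the members, nothing is read from their count. Igf1r was within the count only with most libraries in: it left it when any one of WT replicates 1, 2 or 3 or cKO replicate 1 was taken out, while its log2 fold change stayed between -0.93 and -0.47. The median log2 fold change of the 8 members at day 9 was -0.74, beside 0.01 over all genes tested. At day 5 no member passed or had groups that did not overlap. Of 14849 genes 0.00673% passed there (1 gene, Lmnb1, where DESeq2 called 8), and 2.85% did not overlap (1.5% higher and 1.35% lower). An unadjusted p under 0.05 was found for 89 genes (0.599%), a share far under the threshold itself. A gene that did not pass at day 5 is thus not shown to be without a difference. The members' median at day 5 was 0.02, beside 0.01 over all genes.

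**Figure D2:**
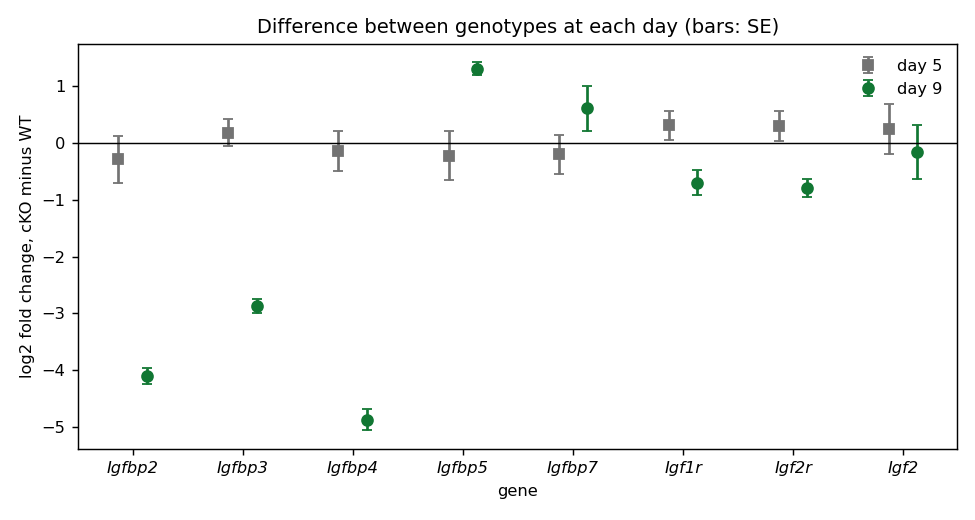
Log2 fold change (cKO minus WT, vertical axis) of the 8 tested IGF family genes at day 5 (grey squares) and day 9 (green circles), with bars for the SE of a fit to 3 libraries per group. The day 5 values lie between -0.29 and 0.31, and the day 9 values spread from -4.87 for Igfbp4 to 1.31 for Igfbp5.

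The genotype difference at day 9 minus that at day 5 was -3.82 ± 0.46 (SE, log2) for Igfbp2, -4.72 ± 0.42 for Igfbp4 and -3.04 ± 0.25 for Igfbp3. It was 1.53 ± 0.47 for Igfbp5 and 0.81 ± 0.54 for Igfbp7. For the receptors it was -1.0 ± 0.35 (Igf1r) and -1.10 ± 0.29 (Igf2r), and for Igf2 -0.43 ± 0.63. These values set the 2 genotype differences side by side. Levels themselves were not compared between days, since each day has its own table and day and table cannot be told apart.

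Levels of different genes were compared on TPM, which corrects for transcript length, rescaled here to a common total without the structural RNA. At day 5 the order was the same in both genotypes. Igfbp2 came first (2637 ± 846 TPM in WT, 2113 ± 700 in cKO, mean ± SD, n = 3), then Igfbp3 (445.5 and 490.0 TPM) and Igfbp4 (444.8 and 388.4 TPM), whose ranges overlapped. Igfbp5 (17.02 and 14.63 TPM), Igf1r (9.66 and 11.6 TPM), Igf2r (8.99 and 10.7 TPM) and Igfbp7 (4.13 and 3.51 TPM) followed, and Igf2, Igfbp6 and Igf1 averaged 0.488 TPM or less. Igf1r and Igf2r overlapped in both genotypes, and so did Igf2 and Igfbp6, while Igfbp5 overlapped both receptors and Igfbp6 overlapped Igf1 in cKO.

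At day 9 the WT order was Igfbp2 (1925 ± 153 TPM), Igfbp4 (274.6), Igfbp3 (129.0), Igfbp5 (35.9), then Igf2r (20.9) and Igf1r (15.3) with overlapping ranges, and Igfbp7 (4.65). In cKO the order was Igfbp2 (86.63, 117.4 and 89.53 TPM) and Igfbp5 (56.79, 110.8 and 60.07 TPM). Their ranges overlapped, but Igfbp2 was the higher within each library. Below them came Igfbp3 (15.3 TPM), Igf2r (10.1), Igfbp4 (8.90), Igf1r (7.74) and Igfbp7 (6.12), each range overlapping the next, with Igfbp3 above Igf2r within each library. By mean TPM Igfbp4 thus stood next to Igfbp2 in WT and below Igf2r in cKO. In cKO replicate 1 Igfbp4 was above Igf2r (11.09 beside 8.409 TPM).

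The summed TPM of the 6 binding protein genes at day 9 was 2483, 2467 and 2159 for WT and 172.2, 269.7 and 172.2 for cKO. The sums overlapped at day 5, at 2468, 4357 and 3821 TPM in WT and 3698, 2049 and 3282 TPM in cKO. The make-up of the sum differed too. Igfbp2 made up 83.17%, 78.99% and 81.59% of it in the WT libraries at day 9 and 50.31%, 43.54% and 51.99% in the cKO libraries. Igfbp5 made up 1.32%, 1.57% and 1.69% in WT and 32.98%, 41.08% and 34.89% in cKO. The share of Igfbp4 was 10.7%, 13.11% and 10.86% for the WT libraries and 6.44%, 3.36% and 3.80% for the cKO libraries, while that of Igfbp3 was 4.70%, 6.04% and 5.63% for the WT libraries and 6.94%, 7.92% and 7.33% for the cKO libraries. The shares are taken within a library and need no scaling between libraries. On expected counts, which do not correct for length, Igfbp5 made up 5.73%, 6.82% and 7.29% in WT and 70.52%, 75.85% and 71.49% in cKO at day 9. Mean shares at day 5 were 73.5% in WT and 69.6% in cKO for Igfbp2, 13.3% and 16.8% for Igfbp3, 12.6% and 12.96% for Igfbp4, and 0.512% and 0.577% for Igfbp5.

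**Figure D3:**
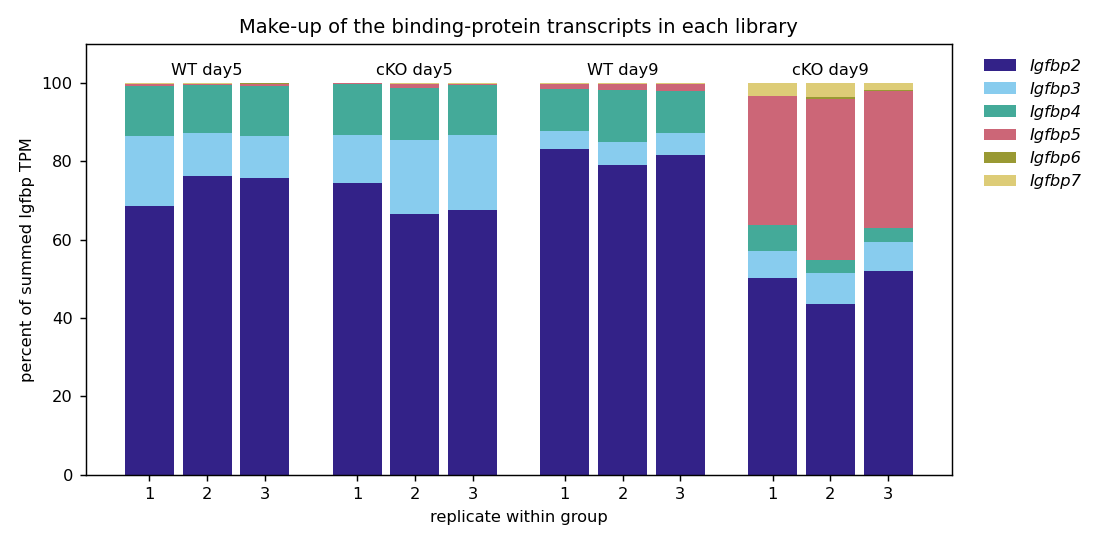
Percent of the summed TPM of the 6 binding protein genes (vertical axis) held by each gene in each of the 12 libraries, by group and replicate. At day 9 the Igfbp5 segment takes 32.98% to 41.08% in the cKO libraries and at most 1.69% in the WT libraries.

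The Igfbp2 and Igfbp5 genes show the change of balance most directly, since their ratio is taken within a library. Igfbp2 TPM over Igfbp5 TPM at day 9 was 63.1, 50.4 and 48.4 for WT and 1.53, 1.06 and 1.49 for cKO. At day 5 it was 99.02, 239.2 and 144.2 across WT libraries and 406, 60.1 and 154.2 across cKO libraries, so that both the highest and the lowest of the 6 values were cKO libraries. The lowest of the 3 cKO ratios at day 9 was that of replicate 2, the library with almost no structural RNA. On rescaled TPM replicate 2 was the highest cKO library for Igfbp2, Igfbp5, Igfbp7 and Igf2r, but not for Igfbp4 or Igf1r. It was also highest for Igfbp3 (21.37, beside 11.95 and 12.61 TPM in replicates 1 and 3) and for the Igfbp sum (269.7, beside 172.2 in each). The gene Lars2 held 9.625% and 10.31% of all counts in cKO replicates 1 and 3 and 0.044% in replicate 2. The part of structural RNA and of Lars2 in these values was not tested.

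Markers of cell types moved at day 9 as well. Besides the fall of 5 of 9 progenitor markers (2 rose), 7 of 9 astrocyte markers rose, with sums of 1511 to 1660 CPM across WT and 2575 to 3034 in cKO. In the oligodendrocyte lineage 7 of 9 tested markers rose and 2 fell, with sums of 739.8 to 951.7 and 2882 to 3667 CPM, and 5 of 8 tested neuron markers rose, with sums of 128.9 to 295.5 and 523.1 to 586.6 CPM (edgeR, adjusted p under 0.05). By the same rule 21% of all 14617 genes tested at day 9 rose and 22.6% fell. The part of these markers in the IGF family differences was not tested.

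For each member with a mean of at least 5 CPM, the genes with the most similar pattern were found by Pearson's r of log2 CPM, centred within each day, over the 12 libraries and 9279 candidate genes. These values describe libraries that share genotype, depth and structural RNA content, and they carry no p. Igfbp2 was nearest to Eln (elastin, r = 0.997) and Sept9 (a septin, 0.996), Igfbp3 to Trib1 (0.996) and Spry1 (a Sprouty inhibitor of growth factor signalling, 0.995), and Igfbp4 to Tmem173 (the DNA sensing adaptor STING, 0.996) and Plk1 (a mitotic kinase, 0.995). Igfbp5 was nearest to Fgf11 (0.922) and Cav1 (caveolin 1, 0.916), so its nearest genes followed it less closely. Igf1r was nearest to Agap1 (0.964) and Myh9 (a non-muscle myosin, 0.920), and Igf2r to Ptprm (a receptor tyrosine phosphatase, 0.973) and Wnt5a (0.965).

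The rest of the IGF pathway was described through 47 genes in 7 lists, of which 39 were tested at each day. At day 9, 10 rose and 11 fell past an adjusted p of 0.05, which is 21 of 39 beside 43.6% of all genes. Of all genes, 21% rose and 22.6% fell, and these shares stand beside the counts of each list below. The median log2 fold change of the 39 genes was 0.04, beside 0.01 over all genes, and at day 5 none passed (median 0.05, beside 0.01). The count at day 9 was 12 without WT replicate 2 and 10 without cKO replicates 1 and 3 together, the libraries with most structural RNA.

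Among 4 tested relatives and regulators of the binding proteins, Htra1 rose and Stc1 fell. Htra1 encodes a secreted serine protease known to cut IGF-binding proteins, Igfbp5 among them, and was at 66.42, 54.29 and 61.91 CPM across WT and 109.4, 149.2 and 135.4 CPM in cKO at day 9. The groups did not overlap (log2 fold change 1.11 ± 0.14, edgeR adjusted p = 0.000606, Benjamini-Hochberg). Stc1, whose product stanniocalcin 1 is an inhibitor of PAPP-A, was at 0.819, 1.58 and 0.989 CPM across WT and 0, 0.126 and 0.281 CPM in cKO (-3.03 ± 0.66, adjusted p = 0.00841), and its call ended without WT replicate 2 (-2.70, adjusted p = 0.0516). The cKO values of Stc1 lie under or near the level of 3 counts. Igfbp1, Igfals, Pappa and Pappa2 had too few counts to test. Of the Igf2 mRNA-binding proteins, Igf2bp3 fell from 49.2 ± 8.9 to 31.2 ± 3.5 CPM (-0.65 ± 0.15, adjusted p = 0.0115), and without cKO replicates 1 and 3 it did not pass (-0.53, adjusted p = 0.132).

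The insulin receptor gene Insr did not pass at day 9, at 53.23, 66.51 and 50.19 CPM across WT and 50.51, 38.8 and 46.86 CPM in cKO (-0.32 ± 0.15, edgeR adjusted p = 0.103, Benjamini-Hochberg), and the insulin genes Ins1 and Ins2 were at 0 in every library. The TPM ratio of Igf1r to Insr was 0.933, 0.821 and 1.01 for WT and 0.596, 0.563 and 0.814 for cKO at day 9. Those ratios did not overlap, but on expected counts they did, at 0.461, 0.3925 and 0.483 for WT and 0.321, 0.269 and 0.430 for cKO, with cKO replicate 3 above WT replicate 2. At day 5 they did, at 0.726, 1.06 and 0.846 in WT and 1.31, 0.783 and 0.853 in cKO.

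Among 6 receptor adaptors 1 rose and 3 fell at day 9 (median -0.40), beside 21% and 22.6% of all genes. The one that rose was Irs2, an insulin receptor substrate that couples both receptors to PI3K, at 32.29, 40.73 and 36.18 CPM across WT and 92.28, 85.37 and 82.74 CPM in cKO. Its groups lay far apart (1.25 ± 0.11, edgeR adjusted p = 0.000118, Benjamini-Hochberg). Shc1 (-0.58 ± 0.15, adjusted p = 0.0148), Gab1 (-0.44 ± 0.12, adjusted p = 0.0214) and Grb14 (-0.84 ± 0.27, adjusted p = 0.0340) were the ones that fell. Each of these 3 calls ended in fits with 1 library left out: Shc1 without WT replicate 2 or cKO replicate 1 (adjusted p up to 0.0566), Gab1 without WT replicate 2 or 3 or cKO replicate 1 or 3 (up to 0.0697), and Grb14 without any one library except cKO replicate 2 (up to 0.109).

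The PI3K, AKT and mTOR list held 14 tested genes, of which 6 rose and 3 fell at day 9 (median 0.25), beside 21% and 22.6% of all genes. Of the 6, 4 had negative values on the deposited TPM without rescaling. The AKT kinase gene Akt2 fell from 132.1 ± 7.5 to 77.2 ± 4.8 CPM (-0.77 ± 0.10, edgeR adjusted p = 0.000654, Benjamini-Hochberg) and Akt1 from 168.4 ± 9.8 to 124.1 ± 5.9 CPM (-0.44 ± 0.10, adjusted p = 0.00945). Pik3r1, the gene of the p85 alpha regulatory subunit of PI3K, rose from 79.2 ± 25.4 to 176.7 ± 14.03 CPM (1.16 ± 0.24, adjusted p = 0.0101). Rictor, which encodes a core subunit of mTOR complex 2, rose from 5.52 ± 3.09 to 24.2 ± 6.8 CPM (2.11 ± 0.44, adjusted p = 0.0130), and its call ended without WT replicate 2 (1.97, adjusted p = 0.0542). Without cKO replicates 1 and 3 the calls of Akt1 (adjusted p = 0.105), Pik3r1 (0.185) and Rictor (0.170) were lost and Akt2 kept its own. Of 4 FOXO genes, Foxo4 fell from 37.6 ± 2.3 to 25.7 ± 1.3 CPM (-0.55 ± 0.11, adjusted p = 0.00561) and the others did not pass (list median 0.03). At day 5 Rictor was at 23.49, 7.88 and 6.30 CPM across WT and 6.65, 35.44 and 7.32 CPM in cKO. Pik3r1 was then at 260.5, 103.4 and 88.56 CPM across WT and 81.91, 298.5 and 110 CPM in cKO. Both genes thus varied widely within a genotype at that day.

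Several imprinted genes form a known network with Igf2, H19 and Igf2r in growth control, and 8 of them were tested. At day 9, 2 rose and 2 fell (median 0.38), beside 21% and 22.6% of all genes, so nothing is read from that count. Cdkn1c, a cell cycle inhibitor gene, was at 16.36, 13.98 and 17.77 CPM across WT and 49.1, 53.66 and 44.6 CPM in cKO (1.62 ± 0.14, edgeR adjusted p = 8.58e-05, Benjamini-Hochberg), and the non-coding RNA Meg3 rose from 0.739 ± 0.223 to 3.72 ± 0.29 CPM (2.32 ± 0.32, adjusted p = 0.000954). Mest was at 110.1, 146.4 and 120.7 CPM across WT and 26.66, 38.35 and 31.94 CPM in cKO (-1.95 ± 0.16, adjusted p = 8.66e-05). H19, the non-coding RNA next to Igf2, fell from 6.56 ± 1.30 to 1.86 ± 0.55 CPM (-1.86 ± 0.27, adjusted p = 0.00129), while its neighbour Igf2 was at 0.717 CPM or less in all 12 libraries.

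**Figure D4:**
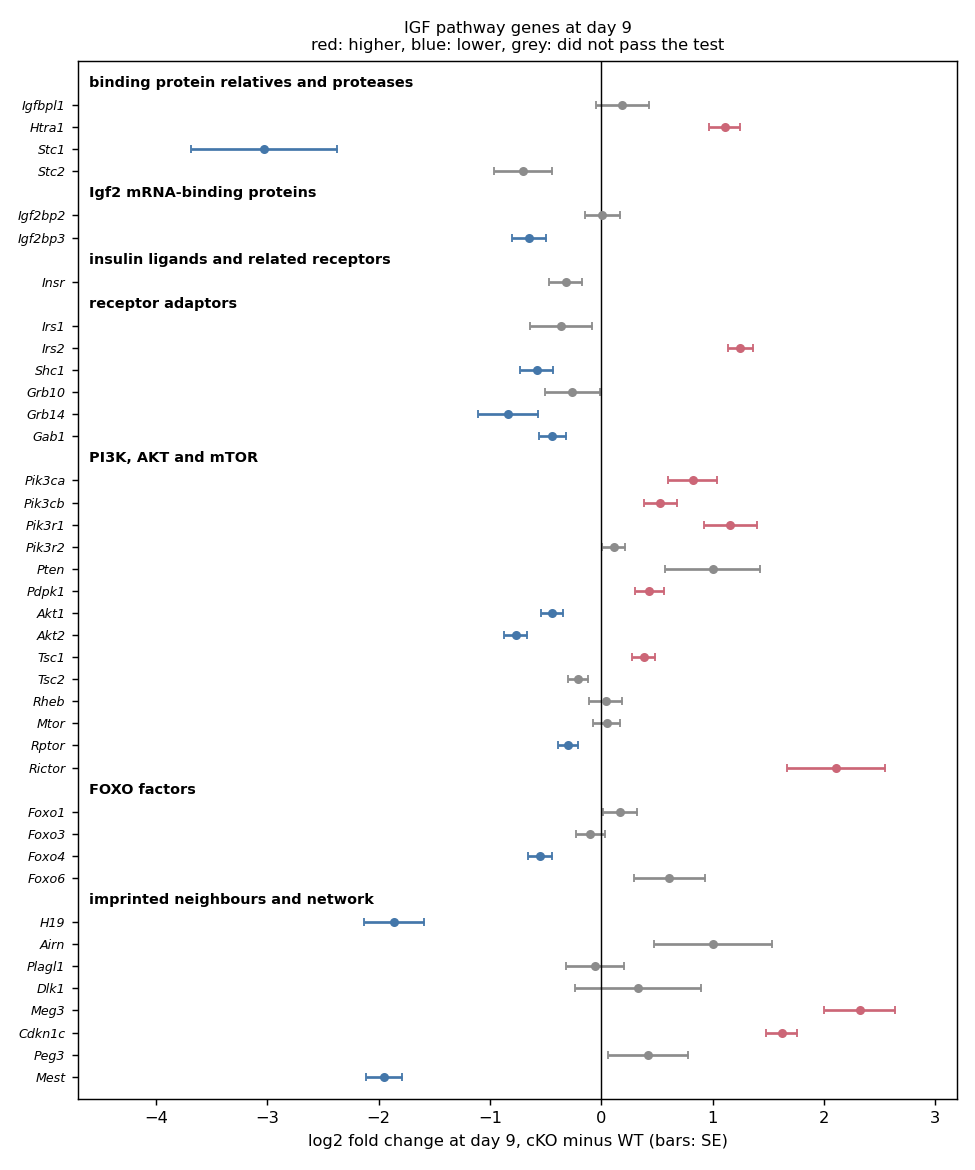
Log2 fold change at day 9 (cKO minus WT, horizontal axis) with SE for the 39 tested genes of the 7 IGF pathway lists, grouped by list. Red points rose and blue points fell past an adjusted p of 0.05 (10 and 11), grey points did not pass, and 4 of the red points (Pik3ca, Pik3cb, Pdpk1 and Tsc1) turn negative on TPM that is not rescaled. Stc1 at -3.03 and Meg3 at 2.32 are the extremes.

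Outside the family, the genotype difference was tested between days, as day 9 minus day 5, on all 12 libraries. Of the 39 tested pathway genes 2 were more positive and 2 more negative at day 9, where 2.57% and 5.14% (7.71% in all) of 15323 genes were. They were Irs2 (1.07 ± 0.20, edgeR adjusted p = 0.00673, Benjamini-Hochberg), Cdkn1c (2.44 ± 0.27, adjusted p = 0.000287), Mest (-2.28 ± 0.29, adjusted p = 0.000688) and Stc1 (-3.28 ± 0.68, adjusted p = 0.0129). The call of Stc1 ended without cKO replicate 2 of day 9 (adjusted p = 0.0654), and 7 genes passed without cKO replicate 2 of day 5.

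Igfbp4 lies at chr11:99041244-99054392 on the forward strand, between Top2a (17054 bases away) and Tns4 (11285 bases away). The other members' places in mm10 are chr5:77349240-77408041 for Igfbp7 (reverse strand), chr15:102144362-102149511 for Igfbp6 (forward), chr7:67952827-68233668 for Igf1r (forward), chr7:142650766-142666816 for Igf2 (reverse) and chr10:87858265-87937042 for Igf1 (forward).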

How the data were processed

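For each day the authors deposited a table of expected counts (RSEM's estimated counts) and a table of TPM. RSEM gene results are what the columns hold, per the file headers. The submitters' processing notes name RSEM, Bowtie2 and mm10. They give a version only for Bowtie2, which is left out as doubtful, and the labels do not state annotation, trimming or strandedness. The day 5 table lists 43309 features by Ensembl identifier (42425 paired with a symbol) and that of day 9 lists 42802 by symbol (41839 in the reference gene names).

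Expected counts as deposited were rounded to integers and tested in R 4.3.3 with edgeR 4.0.16. The steps were filterByExpr by group, TMM scaling and a robust quasi-likelihood fit, with p-values adjusted after Benjamini and Hochberg over all genes tested (threshold 0.05). The 6 libraries of a day were fitted alone, and the day difference on all 12 with 1 mean per group. The SE of a log2 fold change is its size over the root of the F statistic. Levels of different genes, and shares, use the deposited TPM rescaled to a common total (1000000) without 14 structural RNA features. The fitting code was tested on simulated data.

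The members, gene lists and markers were chosen with earlier results of these data known. The text names all 10 members and Lmnb1, up to 4 genes per pathway list with the smallest adjusted p at day 9 (at most 2, as values, where none passed), pathway genes past the threshold for the day difference, and the 2 genes most like each member of at least 5 CPM. The genes most like a member had a mean of at least 5 CPM at each day and were no pseudogene or unnamed feature. Airn, Igf1os, Polr2b, Igfbp1, Lars2 and marker genes named singly were added for their position or because the text singles them out. The lists were binding protein relatives and proteases, Igf2 mRNA-binding proteins, insulin ligands and receptors, receptor adaptors, PI3K with AKT and mTOR, FOXO factors, and imprinted genes. A pathway gene and a marker gene of the lists are not reported here, and the counts and sums leave them out. Alternatives were DESeq2 1.42.0, RLE scaling, no filter, structural RNA left out, the replicate number as a block, limma 3.58.1 on log2(TPM + 1) or log2(TPM + 0.1), and each library left out. Replicates of a group differed by more than sampling noise (chi-square per degree of freedom of at least 4.905). TPM keeps no depth, so precision rests on the counts and on 3 libraries a group.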

Additional observations from a re-analysis of the deposited data

Results flagged for a closer look

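For 4 of the 39 tested pathway genes outside the family, the genotype difference itself differed between the days. The test was day 9 minus day 5 in edgeR (adjusted p under 0.05, Benjamini-Hochberg over 15323 genes), and 7.71% of all those genes passed it. Irs2, an adaptor of the insulin and IGF-1 receptors, had a value of 1.07 ± 0.20 (SE, log2), and the cell cycle inhibitor gene Cdkn1c 2.44 ± 0.27. The value of Mest was -2.28 ± 0.29, and that of Stc1, the gene of a PAPP-A inhibitor, -3.28 ± 0.68. At day 9 all 3 cKO libraries were above all 3 WT libraries for Irs2 and Cdkn1c and below them for Mest and Stc1. Groups did not overlap for 57.8% of all genes at day 9 and for 2.85% at day 5. The test of day 9 minus day 5 uses these same libraries, so the separation adds no support to it. The cKO values of Stc1 at day 9 (0, 0.126 and 0.281 CPM) lie under or near the level of 3 counts. At day 5 the groups overlapped for Irs2, Mest and Stc1, while the 3 cKO libraries of Cdkn1c (4.81, 3.51 and 3.33 CPM) lay below the WT libraries (6.44, 7.24 and 6.99 CPM). The day 5 difference of Cdkn1c, -0.83 ± 0.26, did not pass the test (edgeR adjusted p = 0.9999) and was opposite in sign to that of day 9. Each day has its own table, so the day and the table cannot be told apart.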

How the results depend on the processing

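The called members kept their day 9 direction in every alternative run: Igfbp2 between -5.12 and -4.05 (log2 fold change), Igfbp3 between -3.91 and -2.77, Igfbp4 between -5.74 and -4.73, Igf1r between -1.77 and -0.47, Igf2r between -1.83 and -0.68, and Igfbp5 between 0.20 and 1.43. Of 15 alternatives, the call was lost in 2 for Igfbp5, in 2 for Igf2r and in 6 for Igf1r. Igfbp2, Igfbp3 and Igfbp4 kept theirs. For Igfbp5 the values 0.21 and 0.20 came from unscaled TPM, where the median log2 fold change of all genes was -0.79 (log2(TPM + 1)) and -1.02 (log2(TPM + 0.1)). After rescaling without structural RNA that median was -0.21. On unscaled TPM, with 1 and 0.1 added, 4 day 9 genes turned direction: Pik3ca (-0.51, -0.65), Pik3cb (-0.38, -0.53), Pdpk1 (-0.49, -0.57) and Tsc1 (-0.63, -0.72). The count of genes called at day 9 was then 510 and 623 in place of 6378, and of pathway genes 0 and 1 in place of 21, and it was 4236 and 12 with rescaled TPM. Without cKO replicates 1 and 3 together these counts were 3344 and 10. Leaving out each library in turn gave 4063 to 7507 genes and 12 to 21 pathway genes at day 9, with the lowest without cKO replicate 1 and WT replicate 2. At day 5 the 1 call became 8 with DESeq2, 0 with no filter, 3 with either unscaled TPM, 2 with rescaled TPM and 0 without any one library, and no alternative called a pathway gene. For the day difference, 1181 genes ranged from 756 to 2410 with each library left out, and the 4 pathway genes from 3 to 7, highest without cKO replicate 2 of day 5. DESeq2 called 7 of them. Alternatives for single day differences and the pathway count of that test were chosen after seeing the data. Same-numbered libraries did not consistently deviate together: correlations of their deviations were -0.721, -0.498 and 0.534 at day 5 and -0.001, -0.2 and -0.063 at day 9. Deviations from a mean of 3 libraries are not independent, so these values cannot exclude a pairing. Differently numbered libraries at day 5 ranged from -0.69 (WT replicate 3 with cKO replicate 2) to 0.757 (WT replicate 1 with cKO replicate 2). The source of this shared variation was not tested. With the number as a replicate block 0 genes were called at day 5, 5514 at day 9 (19 pathway genes) and 322 for the day difference (2 pathway genes, without Irs2 and Stc1). The depth of cKO replicates 1 and 3 at day 9 limits Igf1, Igf2 and Igfbp6, which lie near 3 counts there.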
